A study of Mus musculus with 4 samples.

Results

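The genes described here are the 3 enzymes of melanin synthesis, Tyr, Tyrp1 and Dct, and 4 proteins of the melanosome, Pmel, Mlana, Gpnmb and Bace2, in mouse embryonic fibroblasts (MEFs) forced to express Mitf. They were chosen by name for their role. All 7 were found, with 63 listed exons, among the 22835 genes and 226463 exons that could be placed on the mouse genome. The study asked whether MITF, the master transcription factor of the melanocyte lineage, redirects fibroblasts to a melanocyte-like state, and sequenced poly(A) RNA from 1 library per condition. The WT MEF library came from wild-type MEFs at passage 3. The Dox (-) and Dox (+) libraries came from Mitf knock-in MEFs at passage 5, the first untreated and the second given doxycycline (Dox) for 6 days. Both knock-in libraries carry the M2rtTA transactivator at the ROSA26 locus and a tetO-driven M-Mitf, the melanocyte isoform, downstream of Col1a1. The knock-in cells descend from 1 targeted clone of KH2 embryonic stem cells and were taken from chimeric embryos, in which host blastocyst cells are also present, and they carry mCherry and a puromycin resistance cassette by which the transgenic cells were purified from the mixed cultures. The primary melanocyte library (PMel) was not analysed here. The column taken as WT MEF was assigned by its name alone, and it holds other values than the MEF column the study tabulates for single genes, so each result that uses it describes that library.

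Melanin is built from tyrosine inside the melanosome. Tyrosinase (TYR) catalyses the rate-limiting oxidation of tyrosine to dopaquinone, DCT converts dopachrome to its carboxylated indole, and TYRP1 acts further along the eumelanin branch and helps to stabilise tyrosinase. PMEL forms the amyloid fibrils on which melanin is laid down, MLANA (MART-1) binds PMEL and aids its maturation, the protease BACE2 cuts PMEL so that fibrils can form, and GPNMB is a glycoprotein related to PMEL that is made by melanocytes and also by macrophages and osteoclasts. MITF binds E-box motifs, and the genes of all 3 enzymes are textbook targets.

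Levels are given as RPKM, read counts divided by exon length in kilobases and by library depth. The whole reads behind the deposited RPKM were recovered with a depth of 45000000 reads for WT MEF and Dox (-) and 44000000 for Dox (+), and 96.6% to 96.9% of low exons then came out whole. A gene-wide RPKM is the sum of these reads over the exons of 1 transcript divided by their length, and it is the level meant below unless the highest exon is named. On an exon of 150 bp the floor of 3 reads is 0.444 RPKM in WT MEF and Dox (-) and 0.455 in Dox (+). Brackets and ranges after a level or fold are exact 95% intervals that cover counting error only. A read across a splice junction is counted on both exons, so these intervals are somewhat too narrow. There is no replicate of any condition, hence no test, and a difference describes these libraries. Mitf, the gene that was switched on, had a highest exon of 1.52 RPKM in WT MEF, 30.8 in Dox (-) and 1544 in Dox (+). The labels imply that Dox (+) is the highest. They do not imply the difference between WT MEF and Dox (-), neither of which was given Dox.

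With Dox, the level of each of the 7 genes was above its untreated level, but by very different amounts. Mlana, Tyrp1 and Bace2 stood far above their Dox (-) levels, Tyr had 56 reads in Dox (+) and 0 in Dox (-), Pmel was 3.11-fold higher, and Dct and Gpnmb were less than 2-fold higher. A gene was called higher or lower where its highest exon exceeded 10 RPKM in either library and the levels differed by more than 4-fold without a pseudocount. Against Dox (-), 5 of the 7 genes passed 10 RPKM, 3 were called higher in Dox (+) (Tyrp1, Mlana and Bace2) and 0 lower. Of the 13307 genes tested, 218 or 1.64% were called higher and 720 or 5.41% lower. Against WT MEF, 5 passed 10 RPKM, 4 were called higher in Dox (+) (the same 3 and Gpnmb) and 0 lower, where 848 of 12941 genes, 6.55%, were called higher and 440, 3.4%, lower. Rescaling the libraries by the median ratio of expressed genes changed that split over all genes from 65.8% higher among the called to 53.8% and left the 4 calls in place. The Dox (+) library is shared by both comparisons.

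The median log2 fold change of the highest exon, on the RPKM + 1 scale that understates changes at low levels, was 1.75 for the 7 genes between Dox (+) and Dox (-), and 0.23 over all genes tested. The member median is the value of Tyr, which had 0 reads in Dox (-) and did not pass 10 RPKM, and it moves with the pseudocount, to 4.22 at 0.1 RPKM and 0.85 at 5 RPKM, where that of all genes tested was 0.23 and 0.21. On gene-wide levels without a pseudocount, with Tyr at its bound, it was 4.23. Mlana ranked 2nd, Tyrp1 3rd and Bace2 20th by rise among the 13307 genes, whereas Pmel ranked 802nd and Gpnmb 5668th. By level within Dox (+), on the exons used, the order was Bace2, Gpnmb, Mlana, Tyrp1, Pmel, Tyr and Dct, from 327 RPKM to 0.712, and neighbours had counting intervals that did not overlap. The order depends on the exons taken. With every listed exon of the transcript, weighted by GENCODE M21 length, Gpnmb was first (251 RPKM), then Mlana (117) and Bace2 (87.6). Tyrp1 (66.3), Pmel (7.95), Dct (0.744) and Tyr (0.510) followed. The last exons of Bace2 and Tyr did not come out whole at those lengths, so the places of both genes in this order are not settled. By highest exon Gpnmb (662) stood above Bace2 (387).

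**Figure D1:**
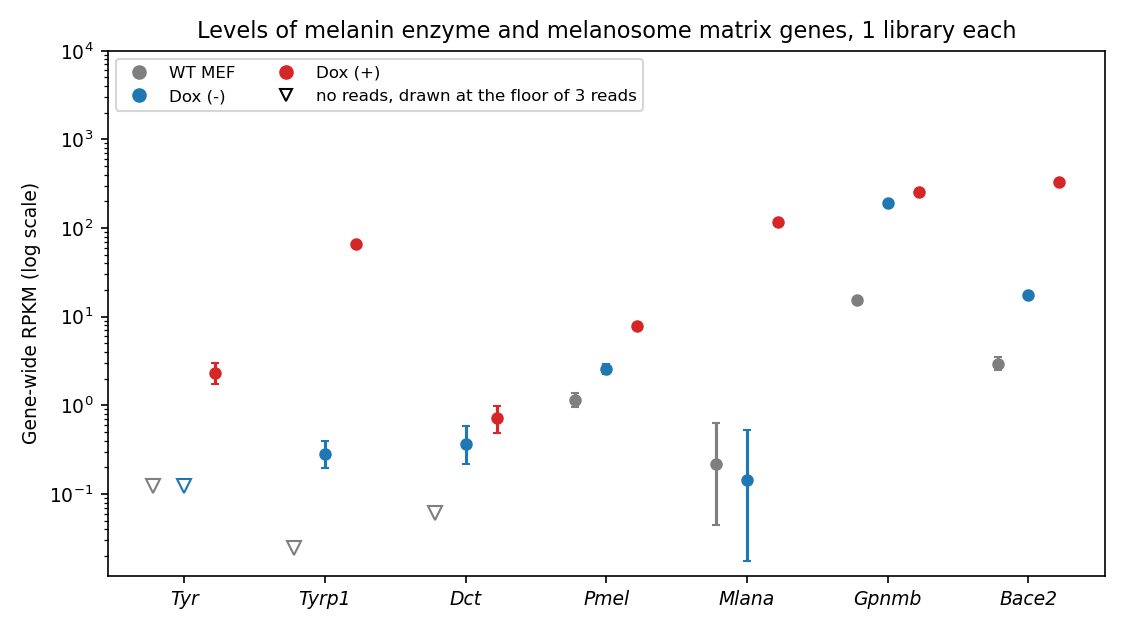
Gene-wide RPKM on a log scale for each of the 7 genes in WT MEF (grey), Dox (-) (blue) and Dox (+) (red), 1 library each, with 95% counting intervals as bars; open triangles mark genes with no reads, drawn at 3 reads. Dox (+) is the highest library for every gene, and Gpnmb is the gene whose Dox (-) point, 192 RPKM, is nearest in level to its Dox (+) point, 253 RPKM.

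**Figure D2:**
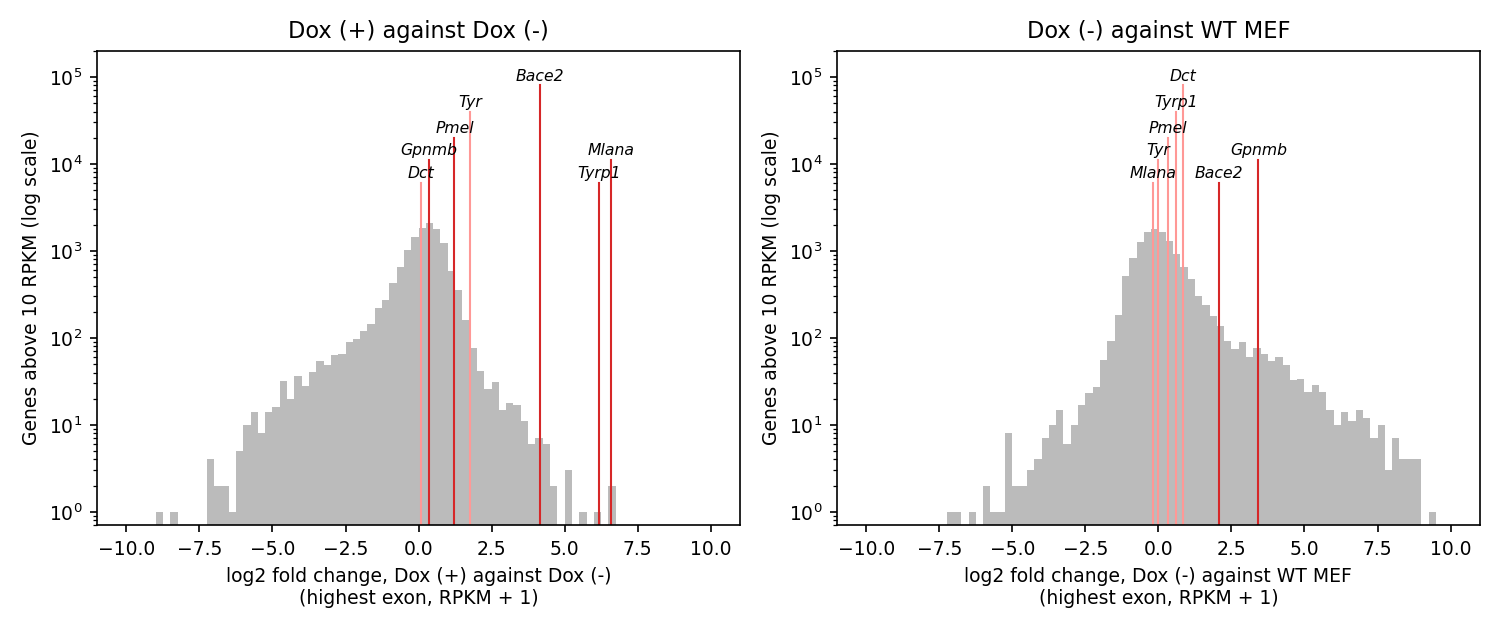
Log2 fold change of the highest exon, on RPKM + 1, for genes above 10 RPKM (grey bars, number of genes on a log scale), with the 7 genes as vertical lines, paler where the gene did not pass 10 RPKM. On the left, Dox (+) against Dox (-), Mlana at 6.59 and Tyrp1 at 6.19 lie at the right edge of all genes; on the right, Dox (-) against WT MEF, Gpnmb lies at 3.42.

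The promoters of the 3 enzyme genes are shown because they share a motif and yet the genes reached very different levels. Each run covers 250 bases before and 50 after a start annotated by RefSeq on GRCm38.p6, 5′ to 3′ on the strand of the gene, with capitals marking TCATGTG (or its reverse complement), the core of the M-box that MITF is known to bind. They lie at chr7:87493463-87493762 (minus strand) for Tyr, chr4:80833963-80834262 (plus strand) for Tyrp1 and chr14:118052197-118052496 (minus strand) for Dct.
Tyr promoter: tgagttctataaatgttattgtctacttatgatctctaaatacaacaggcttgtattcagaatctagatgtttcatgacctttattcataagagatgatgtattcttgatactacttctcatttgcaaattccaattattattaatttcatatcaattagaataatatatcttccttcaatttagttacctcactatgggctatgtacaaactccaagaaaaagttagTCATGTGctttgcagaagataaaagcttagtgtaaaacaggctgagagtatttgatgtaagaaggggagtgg
Tyrp1 promoter: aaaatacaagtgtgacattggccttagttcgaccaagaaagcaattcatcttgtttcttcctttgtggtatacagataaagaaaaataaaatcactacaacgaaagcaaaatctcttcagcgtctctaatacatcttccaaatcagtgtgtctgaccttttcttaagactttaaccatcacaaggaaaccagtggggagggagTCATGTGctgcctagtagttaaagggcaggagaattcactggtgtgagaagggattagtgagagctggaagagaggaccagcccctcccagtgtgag
Dct promoter: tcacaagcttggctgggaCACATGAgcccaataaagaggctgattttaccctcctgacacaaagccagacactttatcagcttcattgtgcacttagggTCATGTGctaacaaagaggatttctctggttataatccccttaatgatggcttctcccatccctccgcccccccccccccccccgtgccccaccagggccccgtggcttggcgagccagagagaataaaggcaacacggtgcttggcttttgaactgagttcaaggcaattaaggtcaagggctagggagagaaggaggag

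On the strand of the gene, TCATGTG began at -22 from the start in Tyr, -47 in Tyrp1 and -151 in Dct, and Dct held another on the opposite strand at -232. Both strands were searched in 32851 RefSeq promoters of the same length, and 3.77% held TCATGTG. The 6-letter CATGTG, which lies within it, was in 14.2%. The longest run of letters shared by all 3 enzyme promoters was GTCATGTGCT, found in 61 promoters of 42 genes, 0.186% of all. In the Gpnmb promoter, chr6:49036268-49036567 on the plus strand, neither CATGTG nor CACGTG was found. CACGTG was in 7.15% of all promoters and in 0 of the 4 read here. The promoter set used had no entry for Mlana, Pmel or Bace2, so no motif was searched in them. A match is a description of letters and does not say that a factor bound there.

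Tyr (mm10 chr7:87424771-87493512, minus strand) had 0 reads on the exons used in WT MEF, 0 in Dox (-) and 56 in Dox (+), a level of 2.33 RPKM [1.76 to 3.02]. The last exon, left out because its reads did not come out whole, was at 0.0118 RPKM in WT MEF, 0 in Dox (-) and 0.290 in Dox (+). It is 4514 bp long in GENCODE M21, and the length behind its RPKM can be another. On the exons used, Tyr was thus at least 19.1-fold higher in Dox (+) than in either other library, taken against 3 reads. The reads were spread over exons 2, 3 and 4, with 22, 15 and 19 of them, at 2.30 to 2.37 RPKM. Tyrosinase, the rate-limiting enzyme, therefore stayed under 10 RPKM and was not eligible for a call, and 35.0% of listed genes had a lower highest exon in Dox (+).

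Tyrp1 (chr4:80834123-80851719, plus strand) had 0 reads in WT MEF, 35 in Dox (-) and 7937 in Dox (+). These gave 0.286 RPKM [0.199 to 0.398] in Dox (-) and 66.3 [64.9 to 67.8] in Dox (+), a 232-fold difference (167 to 333). Against WT MEF the difference was at least 2706-fold. All 8 exons used carried reads in Dox (-), at 0.108 to 0.520 RPKM, and in Dox (+) they ranged from 43.1 to 110 RPKM. The Dox (-) library thus held a low level of Tyrp1 along the whole transcript, and WT MEF held none that was detectable at this depth. Exon 7, at chr4:80849730-80849876 on the plus strand, was the highest, with 0 reads in WT MEF, 2 in Dox (-) and 709 in Dox (+). It is 147 bp of coding sequence from the GENCODE M21 transcript, with 43.5% G or C.
Tyrp1 exon 7: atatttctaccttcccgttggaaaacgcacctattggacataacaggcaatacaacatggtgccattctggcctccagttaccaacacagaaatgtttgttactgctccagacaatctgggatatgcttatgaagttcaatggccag

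Dct (chr14:118012790-118052244, minus strand) differed least among the enzymes. It had 0 reads in WT MEF, 18 in Dox (-) and 34 in Dox (+), or 0.368 RPKM [0.218 to 0.582] and 0.712 [0.493 to 0.994] in the knock-in libraries, a 1.93-fold difference (1.06 to 3.63). Of its 6 exons, 5 were higher in Dox (+), but on 0 of them did the interval of the fold lie above 1. The highest exons, not the same exon in both libraries, were at 0.798 RPKM in Dox (-) and 0.900 in Dox (+). With every listed exon included, Dct was at 0.296 and 0.744 RPKM.

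Within Dox (+) Tyrp1, at 66.3 RPKM, was thus far above the other enzymes per length. Tyr was at 2.33 RPKM and Dct at 0.712 on the exons used. With every listed exon of the transcript, weighted by GENCODE M21 length, Tyr was at 0.510 and Dct at 0.744. The last exon of Tyr did not come out whole at its GENCODE M21 length, so this second order is not settled. In Dox (-) the order was another, with Dct at 0.368 and Tyrp1 at 0.286 with overlapping intervals and Tyr at 0 reads.

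**Figure D3:**
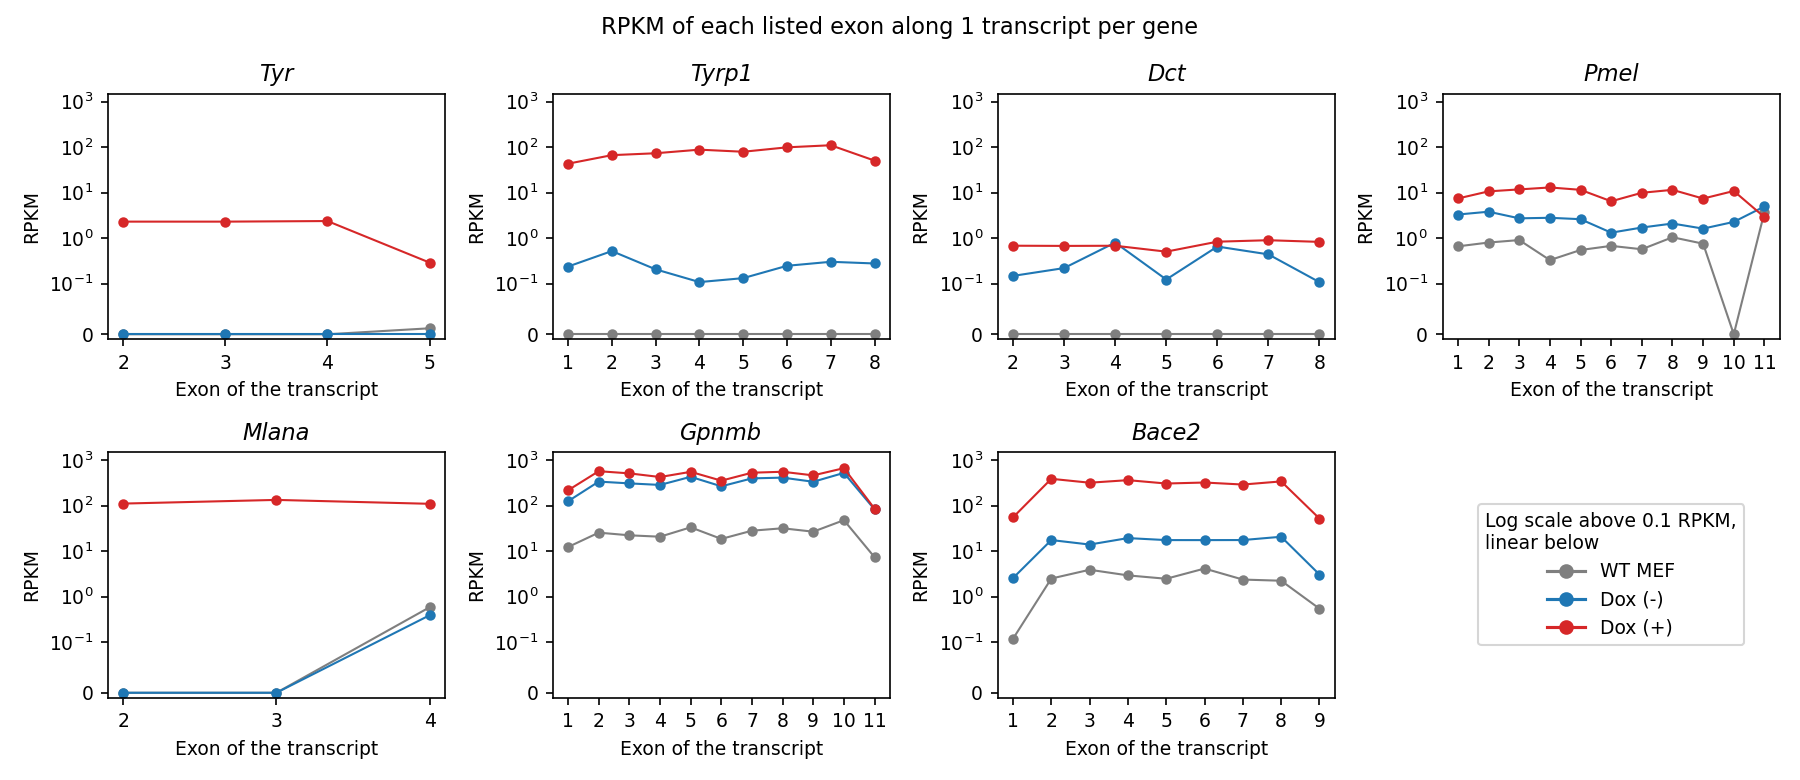
RPKM of each listed exon (log scale above 0.1, linear below) along 1 transcript of each gene, exons left out of the gene-wide level included, in WT MEF (grey), Dox (-) (blue) and Dox (+) (red). The Tyrp1 exons sit at 43.1 to 110 RPKM in Dox (+) and at 0.108 to 0.520 in Dox (-), whereas the knock-in lines of Dct lie close together and the last Pmel exon has its lowest value in Dox (+).

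Mlana (chr19:29697824-29708634, plus strand) had the largest estimated fold between the knock-in libraries among the genes with reads in both, with an interval that overlaps that of Tyrp1. On the exons used, Mlana had 3 reads in WT MEF, 2 in Dox (-) and 1573 in Dox (+), the last at 117 RPKM [111 to 123]. The ratio of Dox (+) to Dox (-) was 804 with an interval of 222 to 6648, wide because it rests on 2 reads. On these exons WT MEF and Dox (-) were both at or under the floor of 3 reads, and these reads all lay on exon 4. The last listed exon of the gene was left out because its reads did not come out whole. It was at 0.566 RPKM in WT MEF, 0.323 in Dox (-) and 58.8 in Dox (+). The gene thus had further reads in WT MEF and Dox (-), which the ratio of 804 leaves out. Exons 2, 3 and 4 carried 457, 568 and 548 reads in Dox (+), at 109 to 133 RPKM. Exon 3, at chr19:29704620-29704716 on the plus strand, is 97 bp of coding sequence with 55.7% G or C, and had 0 reads in both other libraries.
Mlana exon 3: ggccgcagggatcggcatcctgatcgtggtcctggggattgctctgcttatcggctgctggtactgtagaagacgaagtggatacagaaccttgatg

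Pmel, the fibril protein, lies at chr10:128704195-128720238 on the plus strand. Its level was 1.16 RPKM [0.953 to 1.39] in WT MEF, 2.56 [2.25 to 2.90] in Dox (-) and 7.95 [7.39 to 8.54] in Dox (+). The Dox (+) level was 3.11-fold that of Dox (-) (2.69 to 3.61) and 6.86-fold that of WT MEF (5.62 to 8.46). The 3 libraries had intervals that did not overlap, and Pmel was not called in either comparison. Calls rest on the highest exon, which was at 3.70 RPKM in WT MEF, 4.96 in Dox (-) and 13.0 in Dox (+), and in the first 2 libraries this was exon 11, described next. With 1 and the same exon per gene in all libraries, Pmel was called higher in Dox (+) in both comparisons.

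The last exon of Pmel went the other way. Exon 11, at chr10:128719885-128720238, had 59 reads in WT MEF, 79 in Dox (-) and 45 in Dox (+), a ratio of Dox (+) to Dox (-) of 0.583 (0.395 to 0.851), while the other 10 exons were each 2.25- to 5.80-fold higher in Dox (+) with intervals above 1. Of its 354 bp, 105 bp (29.7%) overlap Dgka, a diacylglycerol kinase gene on the opposite strand, and it is not stated that reads were counted by strand. Dgka was at 27.0 RPKM in WT MEF, 32.1 in Dox (-) and 19.2 in Dox (+), a ratio of Dox (+) to Dox (-) of 0.598 (0.564 to 0.634). Its part in the reads of exon 11 was not tested. Without exon 11, Pmel was at 0.651 RPKM in WT MEF, 2.08 in Dox (-) and 8.96 in Dox (+), and the fold of Dox (+) over Dox (-) was 4.31 (3.64 to 5.14) and over WT MEF 13.8 (10.4 to 18.6).

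Bace2, the protease that cuts PMEL, reached a level in Dox (+) far above that of both other libraries. The gene (chr16:97356742-97442936, plus strand) was at 2.96 RPKM [2.48 to 3.51] in WT MEF, 17.5 [16.3 to 18.7] in Dox (-) and 327 [322 to 333] in Dox (+). Dox (+) was 18.7-fold above Dox (-) (17.4 to 20.2) and 111-fold above WT MEF (93.2 to 132). The 7 exons used moved together, with folds of 16.4 to 22.8 over Dox (-). The first exon and the last, which is 6295 bp long in GENCODE M21, were left out because their reads did not come out whole. They were at 55.0 and 51.7 RPKM in Dox (+). With them included, weighted by GENCODE M21 length, Bace2 was at 0.837, 4.90 and 87.6 RPKM, a 17.9-fold difference between the knock-in libraries. The length behind the RPKM of these added exons can be another, so the 3 levels are uncertain. Exon 2, at chr16:97399634-97399722 on the plus strand, is 89 bp of coding sequence with 50.6% G or C, and had 10 reads in WT MEF, 70 in Dox (-) and 1514 in Dox (+).
Bace2 exon 2: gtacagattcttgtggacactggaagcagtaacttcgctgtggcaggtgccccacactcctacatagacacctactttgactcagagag

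Its homologue Bace1, better known for cutting the amyloid precursor protein, did not follow it. Bace1, of whose 12 listed exons 6 overlap another gene, was at 24.1 RPKM in WT MEF, 53.1 in Dox (-) and 36.0 in Dox (+), a ratio of Dox (+) to Dox (-) of 0.678 (0.660 to 0.696). In Dox (+) Bace2 was therefore above Bace1 per length, and in both other libraries it was below.

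Gpnmb (chr6:49036546-49070929, plus strand) was already high without Dox. It was at 15.2 RPKM [14.6 to 15.9] in WT MEF, 192 [190 to 194] in Dox (-) and 253 [250.2 to 255] in Dox (+). Dox (-) was 12.6-fold above WT MEF (12.1 to 13.1), and Dox (+) was 1.32-fold above Dox (-) (1.30 to 1.34). On the log2 scale the latter was 0.39, and 0.17 after rescaling the libraries by their median ratio. Along the 10 exons used, the fold of Dox (+) over Dox (-) ran from 1.69 in exon 2 to 1.04 (1.00 to 1.07) in exon 11. The fold of the first 3 exons exceeded that of the last 3 by 0.40 on the log2 scale, and over 4100 genes measured in this way the median was 0.27, with the central 95% from -0.20 to 0.81.

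**Figure D4:**
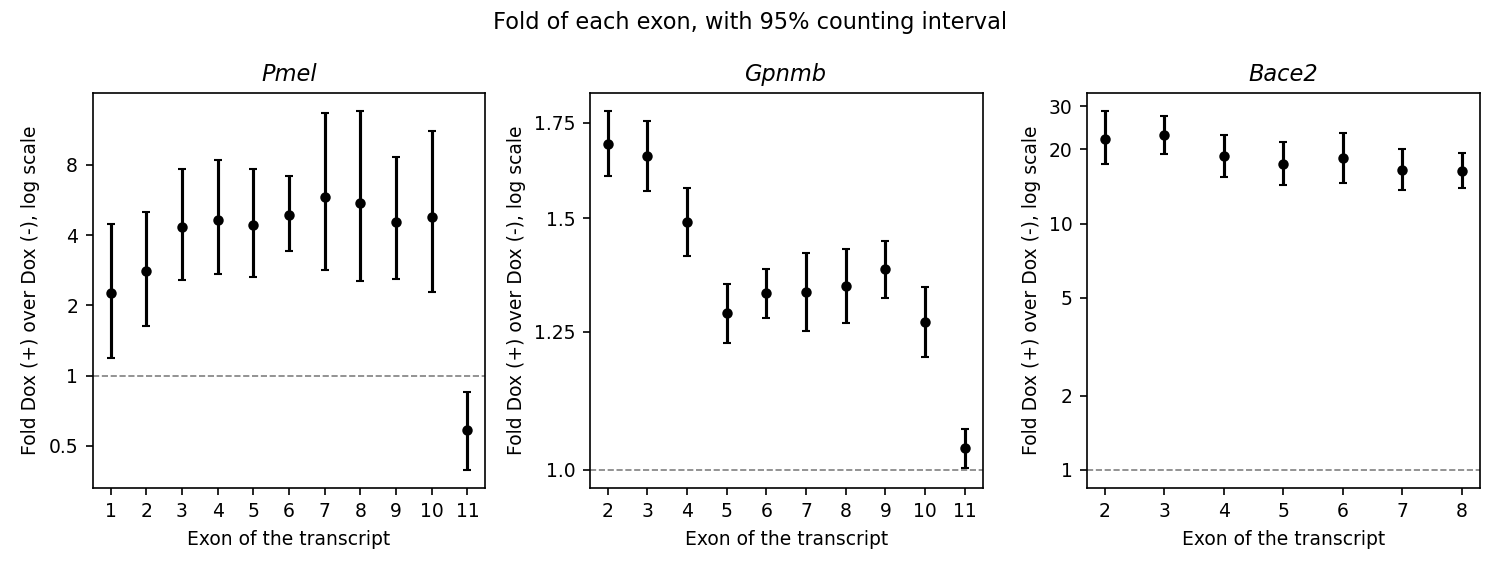
Fold of Dox (+) over Dox (-) (log scale, dashed line at 1) for each exon of Pmel, Gpnmb and Bace2, with 95% counting intervals as bars. In Pmel the last exon is at 0.583 while the other 10 are at 2.25 to 5.80, in Gpnmb the folds run from 1.69 down to 1.04, and in Bace2 all 7 are between 16.4 and 22.8.

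Against WT MEF the Dox (-) library differed in Gpnmb and Bace2, which were the only 2 of the 7 genes above 10 RPKM in that pair. Both were called higher in Dox (-), and 0 were called lower. Over all 13234 genes tested 8.26% were called higher and 1.21% lower. Bace2 was 5.90-fold higher (4.90 to 7.15) and Pmel 2.21-fold higher (1.76 to 2.79). Tyrp1 and Dct, with 0 reads in WT MEF, were at least 11.7-fold and at least 6.0-fold higher in Dox (-). On the exons used, Tyr and Mlana were at or under the floor of 3 reads in both. Passage differs between these libraries together with the knock-in, and the effect of either cannot be told apart.

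Marker genes of other cell types also differed between these libraries. The 12 macrophage markers examined, none of them at 0 in any library, were all called higher in Dox (-) than in WT MEF, and all called lower in Dox (+). Their summed highest exons were 64.0 RPKM in WT MEF, 18512 in Dox (-) and 648 in Dox (+), with single genes from 0.523 to 27.8, from 85.2 to 10820 and from 0.784 to 379. Lyz2 (lysozyme) was at 27.8, 10820 and 379 RPKM, and Csf1r, the receptor for macrophage colony-stimulating factor, at 8.10, 342 and 11.0. Gpnmb followed the first of these steps and not the second. The part of macrophage RNA in the Gpnmb level of Dox (-) was not tested, and fewer cells of a type cannot be told apart from less RNA per cell in a bulk library. The 6 osteoclast markers summed to 23.8, 297 and 459 RPKM, most of it Ctsk (cathepsin K) at 18.2, 259 and 450, while 4 of the 6 were lower in Dox (+) than in Dox (-). Mmp9, a matrix protease, was at 0.317, 27.1 and 4.81 RPKM and was called lower, Acp5 was at 5.21, 10.6 and 3.91, and Calcr, Ocstamp and Dcstamp were listed at 0 in WT MEF and Calcr also in Dox (+). Their part in the Gpnmb levels was not tested. Schwann cell markers, 6 genes that share an origin and several genes with melanocytes, summed to 11.7, 124 and 15.5 RPKM, from 0.0224 to 8.33 in WT MEF, 3.79 to 50.0 in Dox (-) and 0.722 to 5.71 in Dox (+).

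The melanocyte markers outside the 7 genes were mixed. Of 10, Mitf itself and Trpm1, a cation channel gene, were called higher in Dox (+) than in Dox (-). Their highest exons summed to 62.9 RPKM in WT MEF, 111 in Dox (-) and 1648 in Dox (+), of which Mitf was 1544. Most of the WT MEF sum was Slc24a5, at 59.9, 44.5 and 26.6 RPKM on an exon that overlaps Myef2 and at 5.50, 8.93 and 3.60 on its highest exon without an overlap. Sox10, a transcription factor of the neural crest, had 4 reads in WT MEF, 636 in Dox (-) and 148 in Dox (+). Kit, the receptor for stem cell factor, had 3, 69 and 387 reads. Oca2, a melanosomal transporter, was listed at 0 in all 3 libraries, and Slc45a2, another, did not exceed 0.0945 RPKM. By highest exon, 6 of the 10 were higher in Dox (-) than in WT MEF and 3 lower, with a median log2 difference of 0.017. The 3 were Slc24a5, on the exon that overlaps Myef2, and Gpr143 and Trpm1, both at or under 3 reads gene-wide in these libraries. Sox10, Kit, Ednrb and Mitf were among the 6, with Mitf at 1.32 RPKM in WT MEF and 7.16 in Dox (-). The part of melanoblast or other neural crest cells in the low Tyrp1 and Dct levels of Dox (-) was not tested. The 9 fibroblast markers were between 6.07 and 17942 RPKM in every library, and 4 of them were called lower in Dox (+) than in Dox (-). The 6 keratinocyte markers summed to 49.5, 12.2 and 35.4 RPKM, a course set by Krt14 at 32.8, 2.12 and 26.9, with Krt5 and Krt1 listed at 0 in WT MEF and Krt1 in Dox (-).

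**Figure D5:**
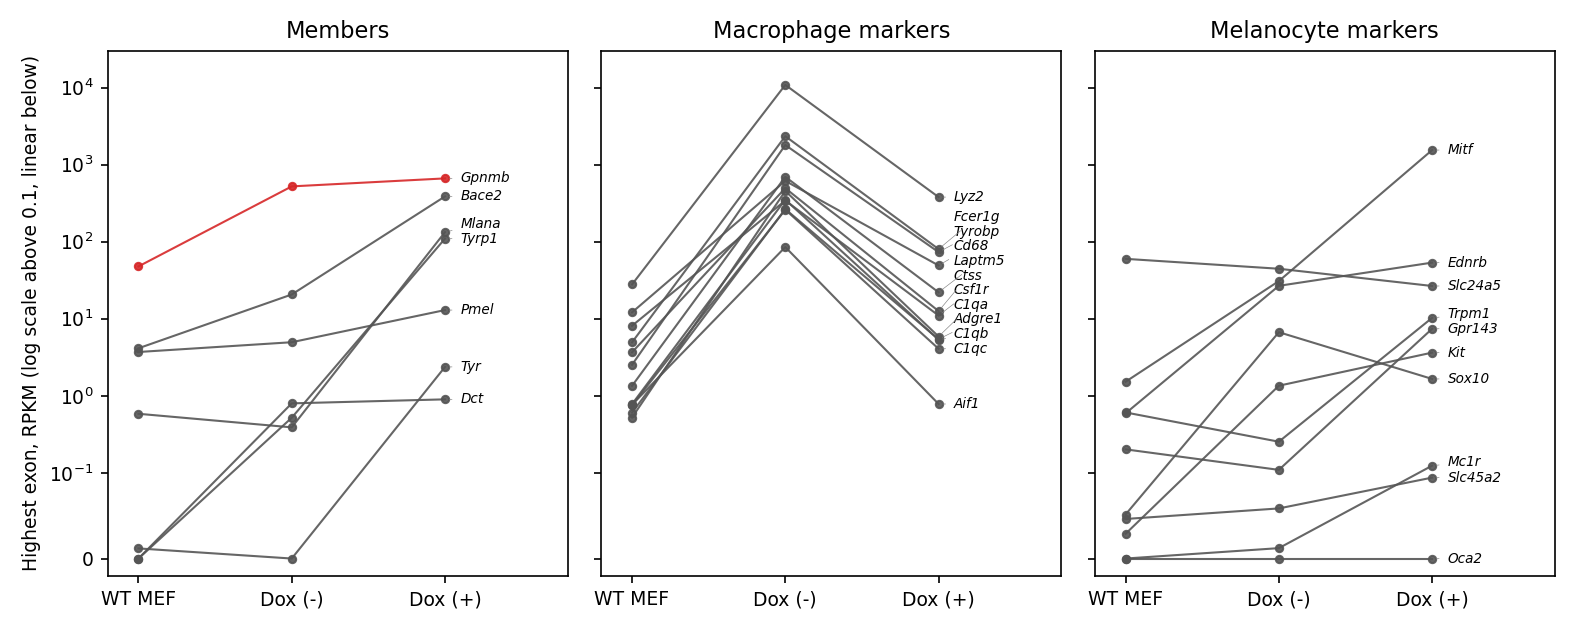
Highest-exon RPKM (log scale above 0.1, linear below) in WT MEF, Dox (-) and Dox (+) for the 7 genes, for 12 macrophage markers and for 10 melanocyte markers, 1 line per gene, with Gpnmb in red. The macrophage lines all peak in Dox (-), while Gpnmb stays at 522 RPKM in Dox (-) and 662 in Dox (+), and Oca2 lies at 0 throughout.

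Of the other genes of melanosome biology examined, 45 of 48 were listed. Between Dox (+) and Dox (-), 39 passed 10 RPKM, 4 were called higher and 0 lower, and the median log2 difference of their highest exons was 0.35. The 4 were Rab27a and Mlph, which link melanosomes to myosin, Trpm1, and Lgals3, a galectin. Rab27a was at 1.77 RPKM in WT MEF, 1.02 in Dox (-) and 21.7 in Dox (+), a 21.2-fold difference between the knock-in libraries (17.9 to 25.2). Mlph (melanophilin) was at 0.756, 0.805 and 15.8 RPKM, a 19.6-fold difference (16.8 to 23.1). The third member of the transport complex, Myo5a, was higher by 2.72-fold (2.69 to 2.76), under the call. By group, among genes that passed 10 RPKM, those called higher were 2 of 17 for trafficking and 1 of 1 for receptors and signals. They were 1 of 11 for PMEL processing, 0 of 7 for the supply of substrate, copper and pH, and 0 of 3 for related chemistry. The share over all genes tested was 1.64%.

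The partners of PMEL other than Bace2 showed smaller differences. Furin, a proprotein convertase that cleaves PMEL, had a Dox (+) level 1.40-fold that of Dox (-) (1.37 to 1.43), and Cd63, the tetraspanin that sorts PMEL into vesicles, 1.22-fold (1.21 to 1.24). Adam10, a shedding protease, was at a ratio of 0.555 (0.544 to 0.566). Apoe, which carries PMEL fibrils on vesicles and is also abundant in macrophages, was at 28.9 RPKM in WT MEF, 907 in Dox (-) and 293 in Dox (+). Against WT MEF, 40 of the 45 other genes of melanosome biology passed 10 RPKM with Dox (+), and 7 were called higher and 0 lower. With Dox (-), 36 passed, and 2 were called higher (Apoe and Ptgds, a prostaglandin synthase) and 0 lower. Over all genes tested, 6.55% were called higher in Dox (+) and 8.26% in Dox (-). Mif and Ddt, whose proteins act on dopachrome in vitro, were at ratios of Dox (+) to Dox (-) of 3.93 (3.74 to 4.12) and 1.74 (1.62 to 1.88). Of the 5 listed exons of Ddt, 4 overlap another gene.

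Genes with the most similar levels over the 3 libraries were found by the distance between log2(RPKM + 1) values of the highest exon, among 11762 genes above 10 RPKM in at least 1 library. For Tyrp1 and Mlana the same 3 genes came nearest, Trim63, Dynap and Lce1g, at distances of 1.35 to 1.70 for Tyrp1 and 1.65 to 1.99 for Mlana. Bace2 was nearest to Upp1 (0.46), Crct1 (0.77) and Chchd10 (0.86). Gpnmb was nearest to Cox6b2 (0.12), Sept6 (0.41) and Apc (0.66), and Pmel to Klhl36 (0.22), Pcdh11x (0.23) and Tmem8b (0.24). Tyr and Dct did not reach 10 RPKM, so they could have no close neighbour among genes chosen to exceed it. The nearest to Tyr were Alppl2 and Alpi, near-identical paralogs, at 1.82 and Trpm1 at 1.89. Those nearest to Dct were Oit3 at 2.63, Tfec at 2.67 and Reps2 at 2.67. The distance rests on 3 libraries and is a description of levels.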

How the data were processed

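Per the labels and the study's methods, the authors prepared poly(A) libraries with a TruSeq v2 kit, aligned reads to mm10 and counted them per Ensembl exon of protein coding, pseudogene and lincRNA genes. The submitters' processing notes name bcl2fastq 2.17.1.14, TopHat2 2.0.10 and bedtools. The deposited values are RPKM per exon. How the listed exons were chosen and whether counting used strand are not given in the sources used here. Libraries were grouped by their labels, with 1 per group, and 3 of 4 were used. The number of columns not used, because their name matched no library, was 1. PMel and the planned comparisons with it were therefore not analysed here.

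Of 234718 listed exons, 228132 matched GENCODE M21 on GRCm38. Reads were recovered by searching for the library depth that made most values below 200 reads whole, within 0.005 reads plus a small rounding term. Exons whose values did not come out whole were left out of gene-wide RPKM. For them the length behind the deposited RPKM can differ from the GENCODE M21 length. Levels with every listed exon were still weighted by GENCODE M21 length. Calls needed more than 10 RPKM and 4-fold, on the highest exon of each library. Log2 values used RPKM + 1. Levels have exact Poisson intervals and folds exact conditional binomial intervals at 95%, and a library with 0 reads was set to 3. No p-values were computed. The steps were tested on simulated data. Alternatives changed both thresholds, the pseudocount, the scaling and the choice of exons. The genes named are the 7 members, Mitf, the 3 nearest genes to each member over 3 libraries, other pathway genes called between Dox (+) and Dox (-) or known as homologues or partners of members, and the highest genes of each marker list. A few further marker genes, Dgka, Myo5a, Ptgds and the genes printed as exon sequences were picked after their values were seen. Members and lists were chosen with earlier results of these data known. Python 3.11.15, pandas 2.3.3, NumPy 2.4.6, SciPy 1.17.1 and matplotlib 3.10.9 were used.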

Additional observations from a re-analysis of the deposited data

How the results depend on the processing

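Of 60 counts of called members under alternative settings, 57 stayed within 1.5 times the reported count. The count of members called higher in Dox (-) than in WT MEF was 2 as reported. It was 1 with an expression threshold of 30 RPKM, 1 with a fold threshold of 8 and 1 with a pseudocount of 5 RPKM. Over all genes tested, 6.37%, 5.43% and 5.43% were then called higher. Gpnmb remained in each. Bace2 was the gene lost, and its highest exon was at 4.14 RPKM in WT MEF and 20.6 in Dox (-). With 1 exon per gene at unchanged thresholds, or with a fold threshold of 2, Pmel was added to the calls between Dox (+) and either other library. The calls then held 4 members against Dox (-) and 5 against WT MEF. An expression threshold of 1 RPKM added Tyr. Of all genes tested, 1.95% against Dox (-) and 7.73% against WT MEF were called higher with 1 exon per gene. These shares were 10.8% and 20.2% with a fold threshold of 2, and 2.74% and 10.4% with an expression threshold of 1 RPKM. Of 126 alternative log2 folds of single members, 32 moved by more than their counting error, and none that lay beyond its counting error changed sign. The other 94 include all folds against 0 reads or with both libraries at or under the floor. Their intervals are unbounded, so these folds could not count as moved. Tyr between Dox (+) and Dox (-), for example, went from 1.73 to 4.60 with a pseudocount of 0.1 RPKM. The 126 include 21 values with every listed exon of the transcript. Their weights are GENCODE M21 lengths, at which some exons did not come out whole. That alternative was chosen after seeing the data, as were the other pseudocounts of the member median. Between Dox (+) and Dox (-) the number of genes called higher over all genes ranged from 92 (fold threshold 8) to 1439 (fold threshold 2), and lower from 415 to 1471. No paired analysis was possible because each condition has 1 library. Comparisons with PMel were not run. Depth limits Tyr, Dct and, outside Dox (+), Tyrp1 and Mlana, which rest on 56 reads or fewer in a library.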
